A study of Homo sapiens with 9 samples.

Results

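The genes that carry a cell from G2 through mitosis to cytokinesis were followed as a set of 52 named genes, out of 56809 genes in the count table. The set is a list of symbols picked by role and holds mitotic cyclins and kinases, kinetochore and checkpoint genes, motors and spindle factors, cytokinesis genes and FOXM1. All 52 symbols were in the table, and all 52 passed the filter on low counts. RNA was measured by bulk poly(A) RNA sequencing in 9 libraries of MDA-MB-468, an established human breast adenocarcinoma line. Before harvest the cells received pSicoR without a hairpin (control), shLMO2-1 or shLMO2-2 by infection, and each group has 3 libraries. The hairpins, short RNAs that lower a matching transcript, target LMO2, a cofactor of transcription with LIM domains. All 9 libraries come from the same line, and the control carries a plasmid too. The labels call the samples triplicates and do not say whether these were separate cultures, so the p-values measure the spread between these libraries, which may be technical.

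Transcripts of these genes accumulate late in the cell cycle, so in a bulk sample their level follows how many cells are in G2 and mitosis and how much each such cell makes. Their transcription is held off in quiescent and early G1 cells by the DREAM complex and driven later by B-Myb with the MuvB core and by FOXM1, acting in large part through CHR elements (TTTGAA) and CCAAT boxes close to the start site. Cyclin B with CDK1 starts mitosis, the checkpoint holds it until kinetochores are attached, the anaphase-promoting complex ends it, and motor and bundling proteins of the spindle midzone prepare the cut between the daughter cells. In bulk RNA, fewer cells in a phase and less RNA per cell in that phase cannot be told apart.

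The promoters of the genes whose level changed, and of cyclin genes and PLK1 for comparison, show these elements directly. Each line below is the 100 bases before the RefSeq start site (GRCh38.p14), 5′ to 3′ on the gene's strand. Capitals mark CCAAT and TTTGAA, read on either strand (ATTGG and TTCAAA are their reverse complements).
PRC1: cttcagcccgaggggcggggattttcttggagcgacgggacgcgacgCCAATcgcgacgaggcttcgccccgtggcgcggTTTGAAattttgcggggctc
NCAPG: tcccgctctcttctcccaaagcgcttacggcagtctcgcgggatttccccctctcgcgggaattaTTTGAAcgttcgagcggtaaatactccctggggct
NDC80: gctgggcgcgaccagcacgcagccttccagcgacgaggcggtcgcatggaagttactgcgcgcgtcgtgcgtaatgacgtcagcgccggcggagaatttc
TOP2A: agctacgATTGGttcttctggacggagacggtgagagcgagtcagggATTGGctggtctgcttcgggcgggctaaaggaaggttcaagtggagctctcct
HMMR: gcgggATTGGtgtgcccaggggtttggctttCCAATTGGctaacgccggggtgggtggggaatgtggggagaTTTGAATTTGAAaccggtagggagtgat
KIF23: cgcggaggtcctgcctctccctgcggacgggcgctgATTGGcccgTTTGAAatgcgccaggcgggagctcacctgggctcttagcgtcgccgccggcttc
NEK2: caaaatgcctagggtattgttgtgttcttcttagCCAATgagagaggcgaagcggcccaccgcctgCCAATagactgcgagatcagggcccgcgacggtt
CCNB1: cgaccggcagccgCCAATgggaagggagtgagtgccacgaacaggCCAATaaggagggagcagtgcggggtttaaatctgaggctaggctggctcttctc
CCNB2: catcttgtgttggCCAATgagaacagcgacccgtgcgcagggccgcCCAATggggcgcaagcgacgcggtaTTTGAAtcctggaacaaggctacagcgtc
PLK1: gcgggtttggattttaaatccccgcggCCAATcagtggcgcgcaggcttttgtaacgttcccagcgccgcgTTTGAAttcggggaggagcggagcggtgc
These windows lie for PRC1 at chr15:90994536-90994635 (minus strand), NCAPG at chr4:17810879-17810978 (plus strand), NDC80 at chr18:2571457-2571556 (plus strand), TOP2A at chr17:40417897-40417996 (minus strand) and HMMR at chr5:163460532-163460631 (plus strand). The others are KIF23 at chr15:69414249-69414348 (plus strand), NEK2 at chr1:211675622-211675721 (minus strand), CCNB1 at chr5:69167050-69167149 (plus strand), CCNB2 at chr15:59105046-59105145 (plus strand) and PLK1 at chr16:23678789-23678888 (plus strand). PRC1, KIF23 and PLK1 each show 1 CCAAT upstream of 1 TTTGAA, and CCNB2 shows 2 CCAAT before 1 TTTGAA. HMMR holds a pair of TTTGAA directly in tandem and 3 matches of CCAAT, of which 2 overlap as CCAATTGG. TOP2A, NEK2 and CCNB1 show 2 CCAAT each, NCAPG shows only TTTGAA, and NDC80 shows neither in these 100 bases.

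Over the 300-base windows in the RefSeq table (250 bases before to 50 after a start), 44 of the 52 genes had an entry, with 55 promoters in all. UBE2C, BIRC5, AURKA, TPX2, FOXM1, RACGAP1, BUB3 and TTK are named without a promoter. TTTGAA was found in 36 of the 55 promoters (65.5%), against 15.2% of all 35116 promoters of the same length. CCAAT was found in 41 (74.5%), against 34.6% of all promoters. Both occurred in 29 of the 55 (52.7%), against 5.9% of all promoters. Among the printed genes CCNB2 and PLK1 hold both elements and were not called. NDC80 holds 1 TTTGAA in the wider window, across its start site and so outside the printed stretch. TOP2A holds 2 TTTGAA in the wider window, both upstream of the printed stretch, and so holds both elements there. A match of letters is a description and not a measured binding site.

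Library totals lay between 15494486 and 23069456 estimated counts, and the 52 genes together took 0.543% to 0.667% of a library. Each of them rested on 108 to 7701 counts in a library. Levels are given as CPM (counts relative to the TMM-adjusted total of the library), and differences as log2 fold changes with their standard error (SE, 3 libraries per group). LMO2 itself was near the limit of detection, with 4, 35 and 19 counts in control replicates 1 to 3, 2, 1 and 6 with shLMO2-1, and 1, 4 and 3 with shLMO2-2. Control replicate 1 lay within the range of the hairpin libraries. The fall of LMO2 passed the test with shLMO2-2, at a log2 fold change of −3.02 (SE 0.819, adjusted p 0.0441), and missed it with shLMO2-1, at −2.44 (SE 0.813, adjusted p 0.0907). All 11 epithelial markers were present in every library, and KRT8, KRT18, KRT19 and EGFR were called higher for the mean of both hairpins. Among all tested genes 12.4% were called for the mean. The rise was not general, as the median of the 11 for the mean was 0.011, with 4 values negative. With shLMO2-1, 2 of them were called higher and 1 lower, and the median was −0.105. PGR, CD3E and LYZ were listed at 0 in all 9 libraries, and ESR1 was low and called lower for the mean, at −0.78 (SE 0.209, adjusted p 0.0342). The summed level of the 12 markers of blood, endothelial and fibroblast cells, per plain library total, was 12.9 to 20.0 CPM in the controls, 18.8 to 21.9 with shLMO2-1 and 18.2 to 21.7 with shLMO2-2. Most of it was COL1A1, at 9.54 to 17.2 CPM on that scale. CD14, a monocyte marker, stood at 1.33, 1.23 and 0.793 CPM in the controls, 2.31, 1.93 and 3.56 with shLMO2-1, and 2.39, 2.60 and 2.79 with shLMO2-2 after TMM scaling, and rose for the mean, at 1.21 (SE 0.272, adjusted p 0.0163). The part of these differences in the results for the mitotic genes was not tested.

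Against control, a small number of mitotic genes fell and none rose. With shLMO2-1, 5 of the 52 fell (PRC1, NCAPG, NDC80, NEK2 and TTK), and with shLMO2-2, 3 fell (TTK, HMMR and TOP2A), so TTK passed with each hairpin. PRC1 narrowly missed the threshold with shLMO2-2 (adjusted p 0.0523) and passed it with both hairpins under several alternatives, among them DESeq2, limma-voom and median-of-ratios scaling. For the mean of both hairpins 7 fell, namely PRC1, TTK, NCAPG, NDC80, TOP2A, HMMR and KIF23. Changes were called at a Benjamini-Hochberg adjusted p under 0.05 by edgeR's quasi-likelihood test over 14709 genes. Among all tested genes the share called lower was 3.88% with shLMO2-1, 4.04% with shLMO2-2 and 5.93% for the mean, and the share called higher was 4.54%, 4.94% and 6.47%. In either direction it was 8.42%, 8.97% and 12.4%. The share among the mitotic genes, all of it lower, was 9.62%, 5.77% and 13.5% in that order. Against the share called lower, it was near for shLMO2-2 and above in the other comparisons. Against the share called in either direction, it was below for shLMO2-2 and near in the other comparisons. Both hairpins are set against the same 3 control libraries, so the comparisons are not independent of each other.

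The sizes were small. The median log2 fold change of the 52 genes was −0.126 with shLMO2-1 and −0.134 with shLMO2-2, where the median over all tested genes was 0.001 and 0. Fold changes ran from −0.411 to 0.097 with shLMO2-1 and from −0.458 to 0.196 with shLMO2-2. With shLMO2-1, 43 of the 52 values were negative (82.7%), and with shLMO2-2, 39 were (75%), against 49.8% and 50% of all tested genes. The lean was not particular to the mitotic genes. Of 52 DNA replication and G1-S genes, 42 were negative with shLMO2-1 and 43 with shLMO2-2 (80.8% and 82.7%). At an unadjusted p under 0.05, 14 of the 52 genes passed with each hairpin and 18 for the mean, where 23.9%, 24.9% and 28.0% of all tested genes did. All 3 hairpin libraries lay below all 3 controls for 13 genes with shLMO2-1 and 12 with shLMO2-2, against 14.3% and 14.5% of all tested genes. They lay above all 3 controls for 0 genes with shLMO2-1 and 1 (NUF2) with shLMO2-2, against 14.0% and 15.3%.

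**Figure D1:**
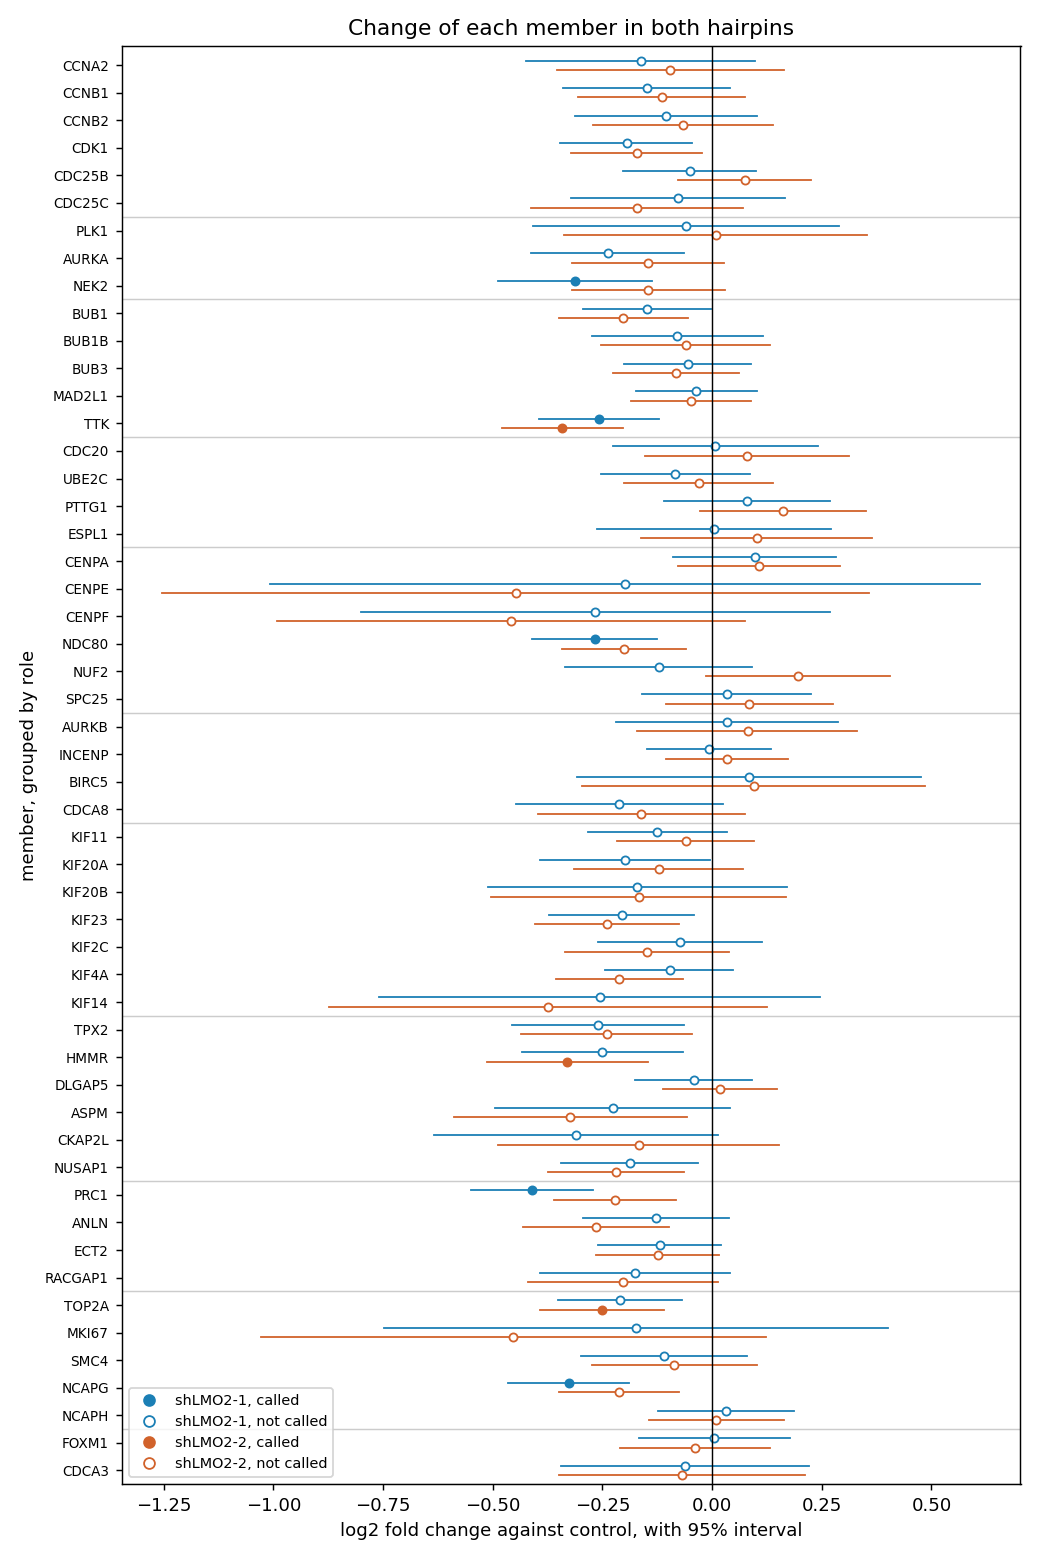
Log2 fold change against control (horizontal axis) of each of the 52 mitotic genes, grouped by role, for shLMO2-1 and shLMO2-2, with 95% intervals as bars and filled points where the adjusted p is under 0.05. Most points lie left of 0, between −0.46 and 0.20, and 5 are filled for shLMO2-1 and 3 for shLMO2-2.

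The counts depended on which control libraries were used. Without control replicate 1, 14 genes fell with each hairpin and 17 in the mean, among them CCNB1, CDK1, CDCA8, TPX2, TOP2A and NUSAP1. The share of all tested genes called in either direction in those fits was 9.33%, 7.55% and 10.6%. Without control replicate 3 the counts were 2, 1 and 2, and the mean kept PRC1 and TTK, where 4.32%, 4.26% and 6.31% of all tested genes were called. Without control replicate 2 they were 3, 4 and 7, where 5.7%, 7.83% and 9.81% were called. Leaving out shLMO2-1 replicate 1, 2 or 3 or shLMO2-2 replicate 2 left 2 calls with shLMO2-1. In those fits 4.51%, 3.84%, 3.63% and 5.73% of all tested genes were called, against 8.42% with all 9 libraries. Leaving out shLMO2-2 replicate 2 or 3 left 1 call with shLMO2-2, where 3.3% and 3.43% of all tested genes were called, against 8.97%. PRC1 fell with shLMO2-1 in all 20 alternatives tried and TTK fell with shLMO2-2 in all 20.

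No gene of mitotic entry was called in the reported fit. There, none of the 6 genes for cyclins, CDK1 and CDC25 phosphatases passed the test in any comparison. CCNB1, which encodes cyclin B1, stood at 142, 179 and 180.3 CPM in the controls, 149.5, 146 and 156 with shLMO2-1, and 153, 151 and 159 with shLMO2-2. Control replicate 1 was the lowest of the 9 libraries and control replicates 2 and 3 were the highest. CCNB1 had a log2 fold change of −0.15 (SE 0.087, adjusted p 0.327) with shLMO2-1 and −0.12 (SE 0.086, adjusted p 0.455) with shLMO2-2. CDK1, the kinase that cyclin B1 activates, stood at 167, 192 and 198 CPM in the controls, 162, 160.0 and 165 with shLMO2-1, and 164, 162 and 169 with shLMO2-2. All of its shLMO2-1 libraries lay below the controls, and 1 of its shLMO2-2 libraries overlapped control replicate 1. For the mean of both hairpins its log2 fold change was −0.18 (SE 0.059, adjusted p 0.0643). CDK1 was called lower under some alternatives. Without control replicate 1, with total counts alone as the scale, or with length trends removed, it was called in each comparison against control. With DESeq2, a replicate block, or at least 10 counts in every library, CDK1 was called for the mean. With length and GC trends removed it was not called. CCNB1 was called lower without control replicate 1. CDC25B, a phosphatase that removes the inhibitory phosphates from CDK1, stood at 231, 267 and 272 CPM in the controls, 259, 239 and 245 with shLMO2-1, and 267, 274 and 269 with shLMO2-2. Each hairpin group overlapped the controls, and the shLMO2-2 libraries all lay above the shLMO2-1 libraries. CCNA2 and CCNB2, which encode cyclins A2 and B2, and CDC25C, another CDK1 phosphatase, had log2 fold changes between −0.17 and −0.066 with either hairpin.

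Among the mitotic kinases, NEK2 fell with shLMO2-1. NEK2, which frees the centrosomes from each other before spindle assembly (chr1:211658657-211675630, minus strand, GENCODE 29, GRCh38), stood at 67.0, 77.7 and 81.0 CPM in the controls, 59.2, 62.6 and 59.9 with shLMO2-1, and 64.5, 70.9 and 68.8 with shLMO2-2. Its 3 shLMO2-1 libraries lay below every other library, while the shLMO2-2 libraries overlapped the controls. The log2 fold change was −0.31 (SE 0.08, adjusted p 0.0359) with shLMO2-1 and −0.14 (SE 0.079, adjusted p 0.29) with shLMO2-2. The call held in 11 of 20 alternatives, with adjusted p up to 0.132, and was lost on leaving out any shLMO2-1 library, control replicate 2 or 3, or shLMO2-2 replicate 2 or 3. PLK1, a kinase needed at nearly every step of mitosis, stood at 74.6, 112 and 119 CPM in the controls, 89.2, 94.7 and 110.2 with shLMO2-1, and 89.5, 105 and 114 with shLMO2-2. Its lowest and highest libraries were both controls, and its 95% interval for the mean of both hairpins was −0.33 to 0.28 on the log2 scale. AURKA, the centrosomal Aurora kinase, had a log2 fold change of −0.24 (SE 0.079, adjusted p 0.0921) with shLMO2-1 and −0.15 (SE 0.079, adjusted p 0.285) with shLMO2-2.

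FOXM1, the transcription factor that drives many of the other members, stood at 157, 160.1 and 156 CPM in the controls, 164, 170.0 and 140.0 with shLMO2-1, and 163, 153 and 145 with shLMO2-2. The groups overlapped, and its interval was −0.17 to 0.18 with shLMO2-1 and −0.21 to 0.13 with shLMO2-2. CDCA3, an adaptor in the turnover of mitotic regulators, had low counts for the set, with 20.9, 30.5 and 28.6 CPM in the controls, 24.1, 26.0 and 26.6 with shLMO2-1, and 23.9, 25.6 and 26.8 with shLMO2-2. Its adjusted p was 0.75 for the mean of both hairpins.

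Of the 5 genes for mitotic chromosome structure, NCAPG and TOP2A fell. NCAPG, a subunit of condensin I, which compacts chromosomes (chr4:17810902-17844862, plus strand), stood at 89.0, 96.8 and 97.3 CPM in the controls, 73.9, 75.6 and 76.2 with shLMO2-1, and 78.3, 82.2 and 83.9 with shLMO2-2. Every hairpin library lay below every control, and the shLMO2-1 libraries lay lowest. NCAPG had a log2 fold change of −0.33 (SE 0.063, adjusted p 0.0109) with shLMO2-1, a fall of 20.3%, and −0.21 (SE 0.062, adjusted p 0.0583) with shLMO2-2. TOP2A, the topoisomerase that untangles sister chromatids (chr17:40388516-40417950, minus strand), stood at 351, 343 and 393 CPM in the controls, 324, 318 and 298 with shLMO2-1, and 300.2, 308 and 305 with shLMO2-2. All 6 hairpin libraries lay below the controls, and the fall was called with shLMO2-2 at −0.25 (SE 0.064, adjusted p 0.0363), not with shLMO2-1 at −0.21 (SE 0.064, adjusted p 0.0694). The TOP2A call with shLMO2-2 held in 11 of 20 alternatives, with log2 fold changes down to −0.14 in size and adjusted p up to 0.282, and was lost without control replicate 3, any shLMO2-2 library, or shLMO2-1 replicate 1 or 2. MKI67, which encodes the proliferation antigen Ki-67 on the surface of mitotic chromosomes, stood at 219, 107 and 162 CPM in the controls, 172, 157 and 104 with shLMO2-1, and 138, 134 and 85.4 with shLMO2-2. Its controls alone spanned a factor of 2.05, and the log2 fold change was −0.17 (SE 0.261, adjusted p 0.745) with shLMO2-1 and −0.45 (SE 0.262, adjusted p 0.318) with shLMO2-2. The interval for shLMO2-2, −1.03 to 0.12, is wide enough to hold both no change and a large fall. NCAPH, another condensin I subunit, had log2 fold changes of 0.032 and 0.01 for shLMO2-1 and shLMO2-2, and SMC4, the condensin core ATPase, had −0.11 and −0.086.

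Of the 6 centromere and kinetochore genes, NDC80 fell with shLMO2-1 and for the mean. NDC80, which binds the kinetochore to microtubules (chr18:2571511-2616635, plus strand), stood at 117, 126 and 134 CPM in the controls, 106, 107 and 99.8 with shLMO2-1, and 109.8, 109 and 109 with shLMO2-2. All 6 hairpin libraries lay below the controls. The log2 fold change was −0.27 (SE 0.065, adjusted p 0.0295) with shLMO2-1, −0.20 (SE 0.064, adjusted p 0.0788) with shLMO2-2 and −0.23 (SE 0.055, adjusted p 0.0204) for the mean. Its call with shLMO2-1 held in 12 of 20 alternatives, and that for the mean in 16 of 19, lost without control replicate 2 or 3. NUF2, its direct partner in the same complex, stood at 23.5, 22.6 and 23.7 CPM in the controls, 24.1, 19.6 and 20.4 with shLMO2-1, and 26.8, 25.4 and 27.9 with shLMO2-2. Its shLMO2-2 libraries lay above the controls and its log2 fold change was 0.20 (SE 0.095, adjusted p 0.231), so it was not called. CENPE, a kinesin-like kinetochore motor, and CENPF, a large kinetochore protein, had the most uneven controls of the 6. CENPE stood at 18.8, 7.79 and 12.9 CPM in the controls, 14.4, 11.1 and 8.70 with shLMO2-1, and 13.6, 10.4 and 4.85 with shLMO2-2. CENPF stood at 135, 71.9 and 109 CPM in the controls, 107, 88.0 and 67.5 with shLMO2-1, and 80.8, 94.0 and 54.9 with shLMO2-2. In both genes control replicate 1 was the highest library of all 9. CENPA, the centromeric histone, and SPC25, another subunit of the NDC80 complex, had log2 fold changes of 0.10 and 0.059 for the mean.

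In the spindle checkpoint, TTK fell with both hairpins and the other 4 genes were not called in the reported fit. TTK, also known as MPS1, is the kinase that starts the checkpoint signal at unattached kinetochores (chr6:80003887-80042527, plus strand). It stood at 104, 105 and 109.5 CPM in the controls, 89.9, 93.0 and 83.1 with shLMO2-1, and 82.6, 84.7 and 83.8 with shLMO2-2. All 6 hairpin libraries lay below the 3 controls, and the shLMO2-2 libraries lay close together. TTK had a log2 fold change of −0.26 (SE 0.063, adjusted p 0.0302) with shLMO2-1 and −0.34 (SE 0.062, adjusted p 0.00849) with shLMO2-2, a fall of 16.3% and 21%. The call with shLMO2-1 held in 11 of 20 alternatives, with adjusted p up to 0.109, and was lost on leaving out any shLMO2-1 library, control replicate 2 or 3, or shLMO2-2 replicate 2. BUB3, a checkpoint scaffold, stood at 161, 185 and 178 CPM in the controls, 165, 163 and 176 with shLMO2-1, and 161, 167 and 167 with shLMO2-2, with overlapping groups and log2 fold changes of −0.056 and −0.082. BUB1, BUB1B and MAD2L1 had log2 fold changes for the mean of −0.17, −0.07 and −0.042, with adjusted p of 0.0681, 0.603 and 0.663.

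The genes that end mitosis were not called in the reported fit. CDC20, the activator of the anaphase-promoting complex that the checkpoint restrains, stood at 251, 340.2 and 334 CPM in the controls, 286, 314 and 330.0 with shLMO2-1, and 312, 321 and 346 with shLMO2-2. Control replicate 1 was the lowest of the 9 libraries, and the log2 fold change was 0.007 with shLMO2-1 and 0.08 with shLMO2-2. PTTG1, the securin that holds separase inactive, stood at 84.4, 95.1 and 101 CPM in the controls, 95.8, 91.3 and 109 with shLMO2-1, and 101, 107 and 107 with shLMO2-2. Its log2 fold change for the mean was 0.12 (SE 0.075, adjusted p 0.328). UBE2C, the ubiquitin-conjugating enzyme of the complex, and ESPL1, separase itself, had log2 fold changes of −0.057 and 0.053 for the mean. With length trends removed, UBE2C was called lower for the mean.

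No gene of the chromosomal passenger complex was called in the reported fit. BIRC5, which encodes survivin, stood at 109.7, 178 and 185 CPM in the controls, 141, 166 and 194 with shLMO2-1, and 150.3, 169 and 186 with shLMO2-2, and its controls alone spanned a factor of 1.68. Control replicate 1 was again the lowest library. CDCA8, which encodes borealin, stood at 129, 165 and 175 CPM in the controls, 127, 134 and 144 with shLMO2-1, and 128, 144 and 148 with shLMO2-2. Its log2 fold change was −0.21 (SE 0.107, adjusted p 0.256) with shLMO2-1 and −0.16 (SE 0.107, adjusted p 0.389) with shLMO2-2. AURKB, the kinase of the complex, and INCENP, its scaffold, had log2 fold changes of 0.057 and 0.014 for the mean.

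Among the 7 kinesins, KIF23 fell for the mean of both hairpins. KIF23, the motor of the centralspindlin complex (chr15:69414246-69448427, plus strand), stood at 99.0, 87.8 and 92.2 CPM in the controls, 83.9, 82.3 and 75.6 with shLMO2-1, and 78.9, 83.7 and 73.7 with shLMO2-2. All 6 hairpin libraries lay below the controls, the closest of them near control replicate 2. The log2 fold change was −0.21 (SE 0.075, adjusted p 0.119) with shLMO2-1, −0.24 (SE 0.074, adjusted p 0.0716) with shLMO2-2 and −0.22 (SE 0.064, adjusted p 0.0446) for the mean. The call held in 9 of 19 alternatives. KIF2C, a microtubule depolymerase at the centromere, stood at 155, 191 and 200.1 CPM in the controls, 169.7, 175 and 174 with shLMO2-1, and 161, 167 and 165 with shLMO2-2. Each hairpin group overlapped the controls, and the shLMO2-2 libraries all lay below the shLMO2-1 libraries. KIF11, KIF20A, KIF20B, KIF4A and KIF14 had log2 fold changes for the mean between −0.32 and −0.093, and none passed in the reported fit.

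Of the 6 spindle assembly genes, HMMR fell with shLMO2-2 and for the mean. HMMR, a microtubule-associated protein of the spindle poles (chr5:163460203-163491945, plus strand), stood at 109.9, 108 and 108 CPM in the controls, 95.8, 97.3 and 80.3 with shLMO2-1, and 91.3, 88.1 and 79.4 with shLMO2-2. The 3 controls were nearly equal and lay above all 6 hairpin libraries. The log2 fold change was −0.33 (SE 0.083, adjusted p 0.0343) with shLMO2-2 and −0.25 (SE 0.083, adjusted p 0.0913) with shLMO2-1. The call with shLMO2-2 held in 14 of 20 alternatives and was lost without control replicate 2 or 3 or any shLMO2-2 library. TPX2, the activator of Aurora A on the spindle, stood at 203, 234 and 263 CPM in the controls, 193, 200.2 and 191 with shLMO2-1, and 184, 208 and 202 with shLMO2-2. Its log2 fold change for the mean was −0.25 (SE 0.076, adjusted p 0.0548), and 1 shLMO2-2 library overlapped control replicate 1. NUSAP1, which bundles microtubules near chromosomes, also had all 6 hairpin libraries below the controls and missed the threshold, at −0.20 (SE 0.061, adjusted p 0.0515). DLGAP5, ASPM and CKAP2L had log2 fold changes for the mean of −0.012, −0.28 and −0.24.

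In the midzone and cytokinesis group, PRC1 fell with shLMO2-1 and for the mean, with the smallest p of the 52 genes in both. PRC1, which cross-links the antiparallel microtubules of the midzone (chr15:90966038-90995629, minus strand), stood at 125, 120.0 and 125 CPM in the controls, 94.7, 93.2 and 89.9 with shLMO2-1, and 113, 104 and 101 with shLMO2-2. The 9 libraries fell into 3 separate ranges, controls highest, shLMO2-2 between and shLMO2-1 lowest. PRC1 had a log2 fold change of −0.41 (SE 0.063, adjusted p 0.00335) with shLMO2-1, a fall of 24.8%, and −0.22 (SE 0.063, adjusted p 0.0523) with shLMO2-2. For the mean it was −0.32 (SE 0.054, adjusted p 0.00448). ANLN, the scaffold of the contractile ring, stood at 357, 304 and 342 CPM in the controls, 317, 323 and 278 with shLMO2-1, and 287, 274 and 274 with shLMO2-2. Its shLMO2-2 libraries lay below the controls, at a log2 fold change of −0.27 (SE 0.076, adjusted p 0.0532). ECT2 and RACGAP1, the exchange factor and the GTPase-activating protein that place the ring, had log2 fold changes for the mean of −0.12 and −0.19.

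**Figure D2:**
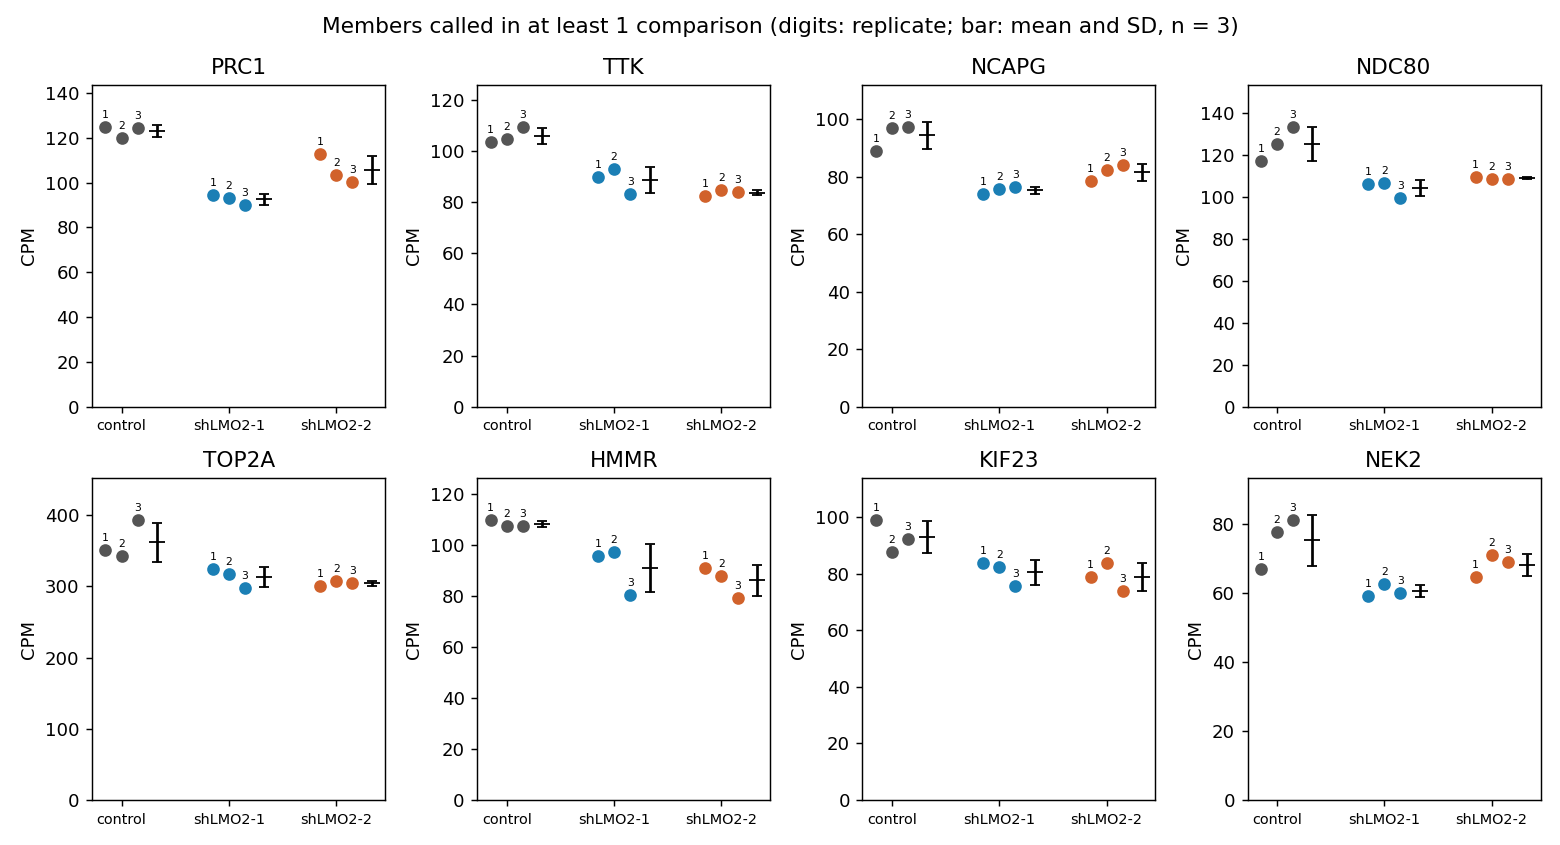
CPM (vertical axis, from 0) in each of the 9 libraries for the 8 mitotic genes called in at least 1 comparison, with a point for each replicate and a bar for the mean and SD (n = 3) of a group. In 7 of the 8 all hairpin libraries sit below all controls, and in NEK2 the shLMO2-2 libraries overlap the controls.

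Over the mean of both hairpins, all 6 hairpin libraries lay below all 3 controls for 8 of the 52 genes (15.4%), against 8.59% of all tested genes. These were the 7 called genes and NUSAP1, and no gene lay entirely above the controls, where 8.12% of all tested genes did. Several of the called genes overlap other annotated genes, and the use of strand in counting is not given in the sources used here: PRC1 overlaps PRC1-AS1, HMMR overlaps HMMR-AS1, NCAPG overlaps LCORL, and 30 of the 52 overlap some gene in GENCODE 29. Their reads and those of an overlapping gene may not be fully separated. PTTG1 among the members, and RBBP4 among the other genes described, have near-identical copies elsewhere in the genome, so their counts are uncertain. Pseudogenes named after the members stood at no more than 0.176 CPM on average.

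Between the hairpins none of the 52 genes was called by edgeR's test, nor by DESeq2 or limma-voom, where 0.768% of all tested genes were called between them, 0.422% lower and 0.347% higher with shLMO2-2. The shLMO2-2 libraries lay all above the shLMO2-1 libraries for 7 of the 52 genes and all below for 2, against 8.97% and 9.12% of all tested genes. At an unadjusted p under 0.05, PRC1 and NUF2 passed, where 10.6% of all tested genes did. PRC1 was higher with shLMO2-2 than with shLMO2-1 by 0.19 (SE 0.063, adjusted p 0.282), and NUF2 by 0.32 (SE 0.096, adjusted p 0.215). The interval for TTK between the hairpins was −0.22 to 0.06 and that for NCAPG was −0.02 to 0.25, so the data do not show that the hairpins act alike.

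Per length of transcript, the members differed widely in level. With CPM divided by the length in kb of the longest protein-coding transcript in GENCODE 29, the control mean was highest for CDC20 (174 CPM per kb), then UBE2C (147), CDK1 (95.3), PTTG1 (87.4) and NUSAP1 (77.4). CCNB1 lay at 77.0, next to NUSAP1 and within the spread of the controls. The lowest were CENPE (1.53), ESPL1 (4.28), ASPM (4.39) and KIF14 (4.58), all with transcripts of over 6 kb. PRC1 (30.1) and TTK (28.5) ranked 28 and 29 of the 52, and NCAPG (20.2) ranked 38. The longest annotated transcript need not be the one expressed, so these levels are approximate.

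**Figure D3:**
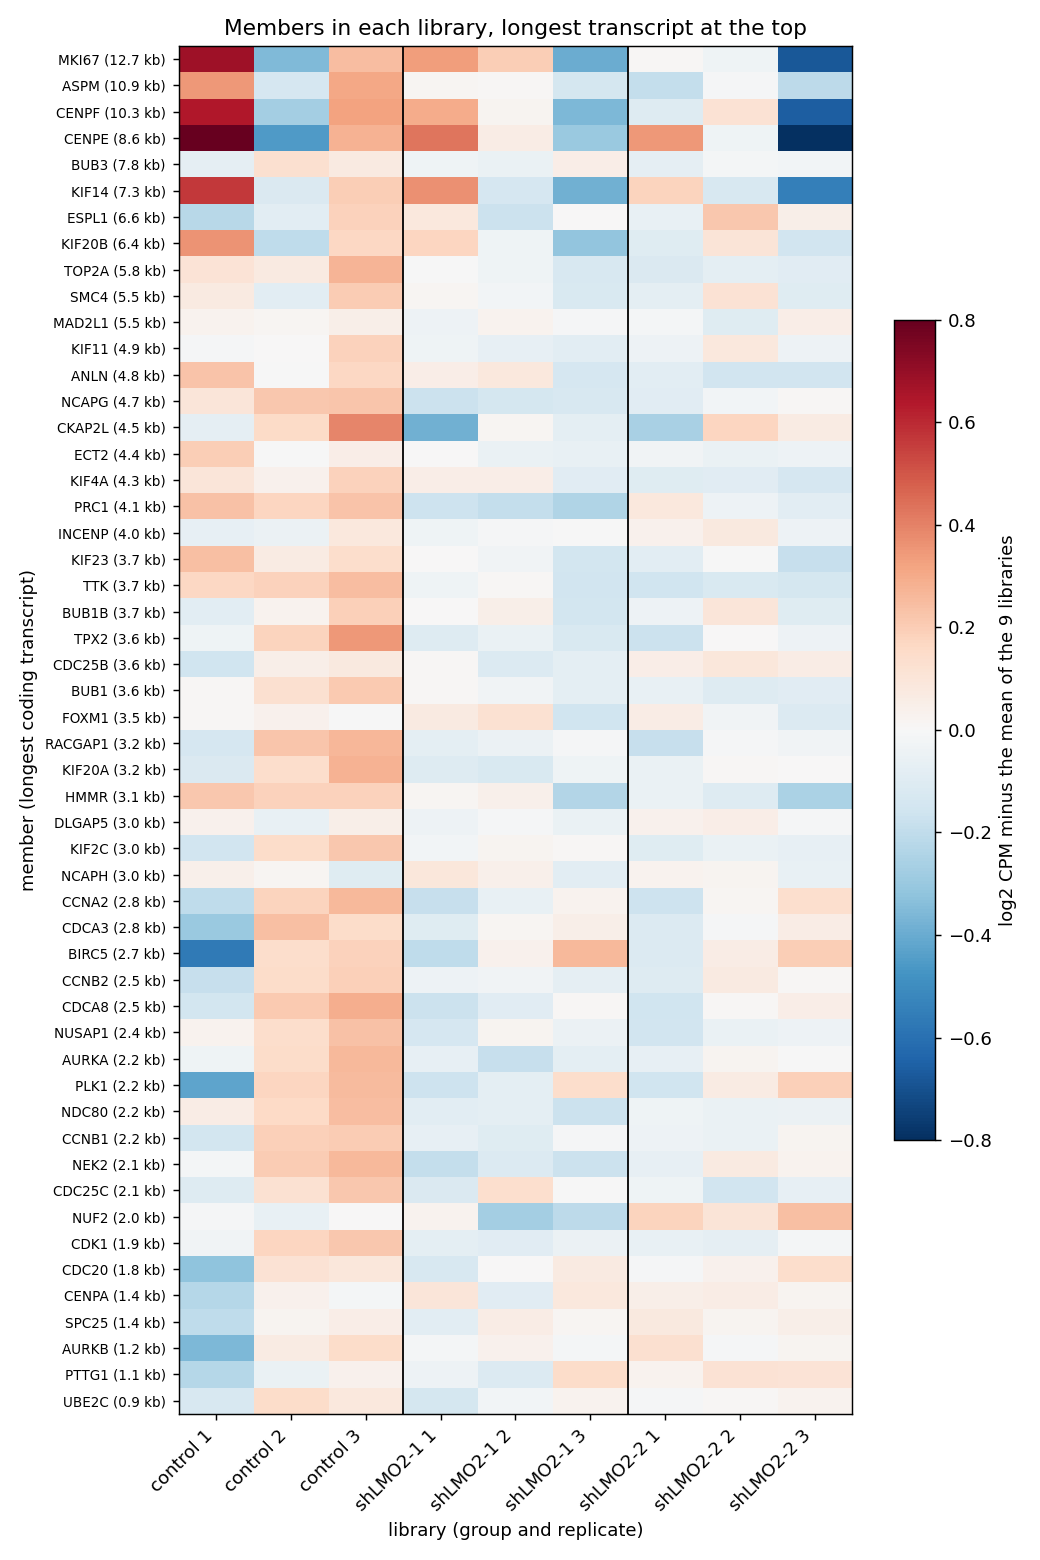
Level of each of the 52 mitotic genes (rows, longest transcript at the top) in each of the 9 libraries (columns), as log2 CPM minus that gene's mean over the 9 libraries (colour). Control replicate 1 is split, with long genes such as CENPE and CENPF high and short genes such as BIRC5 low, and control replicate 3 is high for most rows.

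The controls themselves differed along the set. Relative to each gene's mean over all libraries, the median log2 deviation of the 52 genes was −0.02, 0.096 and 0.195 in control replicates 1 to 3. It was −0.036, −0.025 and −0.077 with shLMO2-1 and −0.059, 0 and −0.032 with shLMO2-2, so control replicate 1 lay among the hairpin libraries and control replicate 3 stood highest. Control replicate 3 was the highest control for 34 of the 52 genes and replicate 1 the lowest for 33, against 42.1% of all tested genes for the latter. The difference ran with transcript length. In the 8 genes of 6 kb or more (MKI67, ASPM, CENPF, CENPE, BUB3, KIF14, ESPL1 and KIF20B) the median deviation was 0.461, −0.168 and 0.222 in control replicates 1 to 3, and in the 23 genes under 3 kb it was −0.148, 0.145 and 0.189. Across the 52 genes, Spearman's rho between transcript length and the deviation from the group mean was 0.61 in control replicate 1 and −0.74 in replicate 2, and across all 14709 tested genes it was 0.37 and −0.42. Genes of a library share its depth and preparation, so these rank correlations are a description without a test. Among shLMO2-2 libraries, replicate 3 had a rho of −0.52 across the 52 genes, and among shLMO2-1 libraries replicate 3 had −0.55.

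**Figure D4:**
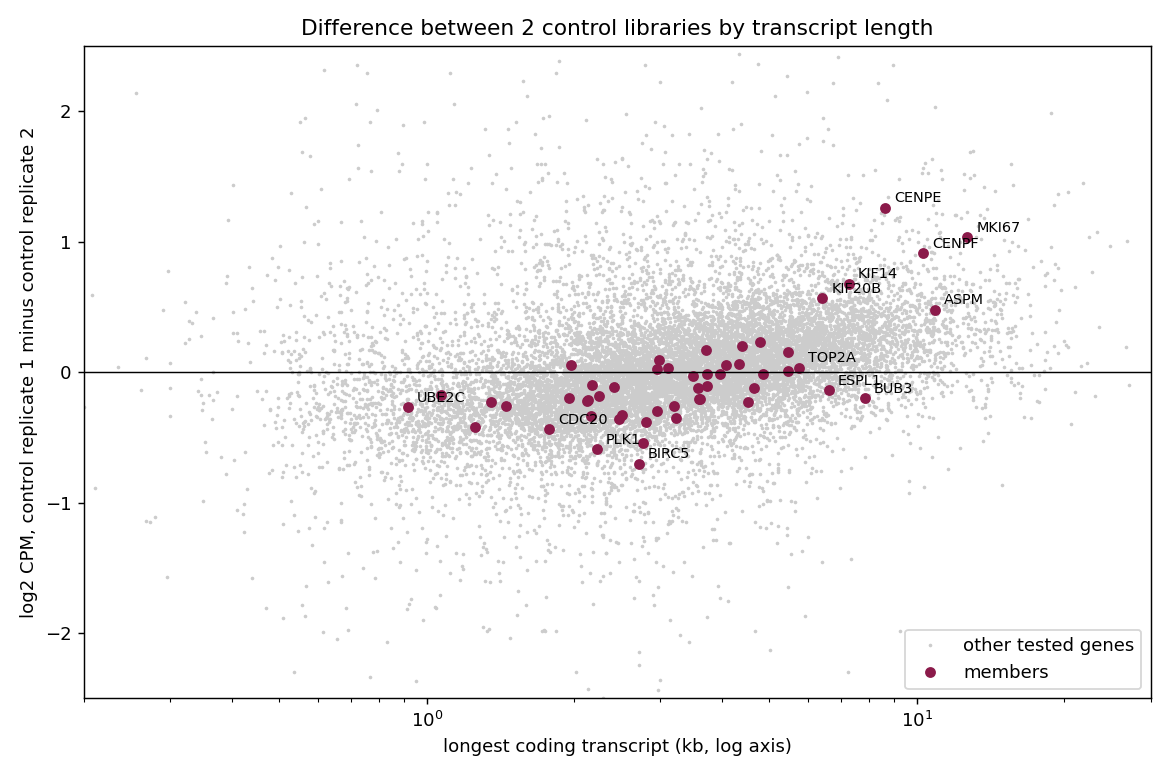
Log2 difference of control replicate 1 from control replicate 2 (vertical axis) against transcript length in kb (horizontal log axis) for all tested genes (grey; 80 lie outside the plotted range) and the 52 mitotic genes (coloured). The long genes CENPE and CENPF lie at 1.26 and 0.91, and the short gene BIRC5 at −0.70. BUB3 and ESPL1, also long, lie at −0.199 and −0.138.

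As a group, the longest genes had the least precise fold changes, though BUB3 (7.83 kb) had an SE of 0.066 with shLMO2-1. The median standard error with shLMO2-1 was 0.192 on the log2 scale for the 8 long genes, 0.087 for the 23 short ones and 0.072 for the 21 between. Over the whole range of lengths there was no rank relation, with a Spearman's rho of 0.02 between SE and length across the 52 genes. None of the 8 long genes was called in the reported fit. With a block for replicate number, KIF14 was called lower with shLMO2-2 and for the mean. In the reported fit the median log2 fold change of the 8 was −0.186 with shLMO2-1 and −0.349 with shLMO2-2. In the genes under 3 kb the medians were −0.078 and −0.066, and in those between −0.148 and −0.202. Without the filter on low counts, ASPM, CENPF and MKI67 were called lower with shLMO2-2 and for the mean, and without control replicate 2 ASPM was called lower with each hairpin and for the mean. The members were also poorer in GC than the tested genes as a whole, with a median of 42.9% against 49%, and across the 52 genes the fold change for the mean of both hairpins had a Spearman's rho of 0.47 with GC content, where it was 0.29 across all tested genes. With each library's trends in length and GC removed, an alternative chosen after seeing the data, PRC1 was still called with shLMO2-1 and TTK with shLMO2-2, the mean kept both, and no other member was called.

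Other genes of the cell cycle were called lower more often than higher. Of 80 further mitosis and G2-M genes, 6 fell and 1 rose with shLMO2-1, and 6 fell and 1 rose with shLMO2-2. That is 7.5% lower with each, against 3.88% and 4.04% of all tested genes. For the mean 10 fell and 2 rose (12.5% lower, against the background of 5.93%). In either direction 12.4% of all tested genes were called for the mean. CKAP2, a spindle microtubule protein, had a log2 fold change for the mean of −0.35 (SE 0.058, adjusted p 0.00346), HJURP, the chaperone of CENPA, −0.46 (SE 0.093, adjusted p 0.0104), and SGO2, a protector of centromeric cohesion, −0.61 (SE 0.119, adjusted p 0.0089). FAM83D, a spindle protein, had −0.31 (SE 0.063, adjusted p 0.01). SKA2, a kinetochore subunit, rose, at 0.27 (SE 0.06, adjusted p 0.0144). Of 52 DNA replication and G1-S genes, 5 fell and 0 rose for the mean (9.62% lower, against the same background of 5.93%). The median was −0.092 over this list against −0.131 over the mitotic genes. Among the 5 that fell were MCM3 (−0.29), ORC6 (−0.34), PRIM2 (−0.41) and GINS2 (−0.22), which take part in loading or firing origins or in priming.

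Among 23 genes listed as regulators of G2-M transcription, 4 fell and 1 rose for the mean. That is 17.4% lower, where 5.93% of all tested genes were called lower and 6.47% higher. MYBL2, which encodes B-Myb, stood at 364, 403 and 394 CPM in the controls, 491, 541 and 513 with shLMO2-1, and 452, 472 and 469 with shLMO2-2. All 6 hairpin libraries lay above the controls, and the log2 fold change was 0.41 (SE 0.059, adjusted p 0.00227) with shLMO2-1 and 0.26 (SE 0.059, adjusted p 0.0214) with shLMO2-2. RBBP4 and LIN9, subunits of the MuvB core, fell for the mean, at log2 fold changes of −0.33 (SE 0.047, adjusted p 0.00191) and −0.28 (SE 0.071, adjusted p 0.0266). RBL2, the pocket protein p130 of the DREAM complex, fell at −0.23 (SE 0.051, adjusted p 0.0153). GADD45A, counted among the 4, is a p53 target that restrains CDK1 and not a direct regulator of transcription. It fell at −0.52 (SE 0.07, adjusted p 0.0012).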

How the data were processed

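The authors deposited 1 table of estimated counts per gene for the 9 libraries. The submitters' processing notes name Salmon 0.12, DESeq2 1.22.2 and GRCh38.p12 without saying what each was used for, and how strand was treated is not given in the sources used here. Estimated counts were rounded and tested with edgeR 4.0.16 in R 4.3.3 (TMM scaling, filterByExpr with a minimum count of 10 and total of 15, quasi-likelihood F-test, all 9 libraries in 1 fit without covariates). This kept 14708 genes. LMO2 was added back, so 14709 genes with 99.91% of the counts were tested, and p-values were adjusted over all of them by Benjamini-Hochberg. SEs come from the fold change and its F statistic, and intervals are at 95%. Libraries were grouped by the plasmid in their labels. Libraries of 1 group differed beyond counting noise, so none was counted as a duplicate.

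The members and lists were chosen with earlier results of these data known. Values in every library were to be given for called members, for the smallest p and highest level in each role, and for CCNB1, CDK1, PLK1, MKI67, FOXM1 and BUB3. At most 5 called genes were to be named from each other list. NUF2, CENPE, CENPF and MYBL2 were given in full after their values were seen. Coordinates and transcript lengths are from GENCODE 29 by symbol.

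Alternatives were other scalings and filters, DESeq2 1.42.0 and limma 3.58.1, fits to the compared groups alone, a block for replicate number, and fits without 1 library at a time. Removing trends with transcript length and GC from the libraries was added after seeing the data. The method was checked on simulated data.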

Additional observations from a re-analysis of the deposited data

How the results depend on the processing

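No member was called higher in any setting, and none was called between the hairpins in any. The medians kept their sign against control and ranged from −0.164 to −0.078 with shLMO2-1, −0.196 to −0.07 with shLMO2-2 and −0.173 to −0.071 for the mean. Counts of members called, in the order shLMO2-1, shLMO2-2 and mean, were 5, 3 and 7 as reported. For the settings that follow, apart from fits without 1 library, the share of all tested genes called is not given. Those counts are therefore not set against a background. With total counts alone as the scale they were 8, 11 and 14. Without a filter shLMO2-2 had 7, and with at least 10 counts in every library shLMO2-2 had 6 and the mean 12. DESeq2 gave 11 for shLMO2-2 and 13 for the mean. With only the groups compared shLMO2-1 had 2. With length trends removed shLMO2-2 had 6 and the mean 12, and with length and GC trends removed the counts were 1, 1 and 2. Leaving out 1 library at a time gave 2 to 14, 1 to 14 and 2 to 17. Median-of-ratios and upper-quartile scaling and limma-voom stayed within 1.5 times of each count. The cause was not tested. Of 1817 values of single named members under alternatives, 65 changed sign without being called in either setting, all with a reported size of at most 0.173.

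The replicate numbers are given by the labels, and the reported fit did not use them to pair the samples. Of 9 pairs of same-numbered libraries, 6 had correlated deviations over 0.1. Across all tested genes the correlations were 0.23 to 0.3 for number 1, −0.06 to 0.05 for number 2 and 0.14 to 0.21 for number 3. Across the mitotic genes alone they were 0.76 to 0.86 for number 1, −0.69 to 0.14 for number 2 and 0.33 to 0.84 for number 3. Whether libraries of the same number share a preparation was not tested. With a replicate block the counts of members called were 10, 10 and 15, and 0 between the hairpins, also without a share over all tested genes. As a hint from the data, 8 of 9 libraries correlated best with their own number.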
